A study of Mus musculus with 6 samples.

Results

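The heat shock proteins and chaperones described here are 50 genes, chosen by name as the HSP70, HSP90 and small heat shock protein families, the J proteins, the chaperonins, the cochaperones and the heat shock factors. All 50 were matched to a probe by transcript accession, and all 50 were well above background on each of the 6 arrays, so none was lost to the filter on dim probes that left 25005 genes and transcripts in the whole series. The quadriceps RNA came from 6 males of the AR97Q line, aged 9 weeks, of which 3 had exercised and 3 were sedentary. AR97Q mice model spinal and bulbar muscular atrophy (SBMA). The line is transgenic on a C57BL/6J background, and the mice of both groups carry the transgene, so no group without it is compared here. Exercise meant runs of 60 min on a forced wheel turning at 5 m/min, 5 days each week, from the age of 5 weeks and for 4 weeks, after a period of acclimation, and tissue was taken on the day following the final run. Each mouse was measured on 1 single-colour array.

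Chaperones bind proteins that are not folded and keep them from clumping until they fold, are passed on or are degraded. HSP70 proteins work in cycles driven by ATP, in which J proteins deliver the client and stimulate ATP use, and cochaperones release the nucleotide or hand the client to HSP90 or to the proteasome. Small heat shock proteins hold unfolded clients without ATP and are abundant in striated muscle, where several sit at the Z-disc. Heat shock factor 1 (HSF1) switches on the inducible members through heat shock elements in their promoters. SBMA is a polyglutamine disease, and HSP70, HSP90 and the ubiquitin ligase CHIP (Stub1) are known to act on proteins with expanded polyglutamine tracts.

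Values are given as scaled log2 signals, the log2 of an array's processed spot intensity minus that array's 75th percentile, and each difference is exercise minus sedentary on that scale. A member is written as having risen or fallen where the adjusted p of limma (Benjamini-Hochberg over all 25005) was under 0.05. On the linear scale that percentile ran from 250.7 to 257.0 in the exercise group and from 310.5 to 383.7 in the sedentary group, and no spot was saturated. All 9 markers of skeletal muscle were well above background on all arrays. Beside the members, 12 of 13 fast fibre markers rose, with a summed level of 7535 to 8378 in the exercise group and 3573 to 5375 in the sedentary group, in units of the 75th percentile. Of 12 denervation markers 10 fell, with summed levels of 55.0 to 59.7 in the exercise group and 94.9 to 263.6 in the sedentary group. The part of either in the members' values was not tested, and in bulk tissue fewer cells of a type and less RNA per cell cannot be told apart. Exercise arrays 1 to 3 and the array of sedentary mouse 1 lay in 1 strip of the slide and the other sedentary arrays in the second strip. Group and strip are therefore mostly confounded.

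Of the 50 members 7 rose and 1 fell. The 7 were the small heat shock proteins Hspb6, Hspb2 and Hspb3, the J proteins Dnajb5 and Dnaja3, the mitochondrial cochaperonin Hspe1 and the transcription factor Hsf1, and the 1 was Hspa13. Over everything tested, 11.5% rose and 6.15% fell, so that 7 of 50 is close to the background and 1 of 50 is under it. None of the members reached a difference of 1 in either direction together with the adjusted p, against 2.78% of everything tested. Differences ranged from -0.71 for Hsp90aa1 to 0.83 for Hspb6, with a median of 0.05 beside 0.03 for everything tested. The exercise arrays lay wholly above or wholly below the sedentary arrays for 18 members, 15 above and 3 below, against 43.2% of everything tested. The counts of calls depended on single arrays. With exercise mouse 1, 2 or 3 or sedentary mouse 2 or 3 left out, limma called 0 members, while 10 to 17 had an unadjusted p under 0.05, and without sedentary mouse 1 it called 5 higher (Dnaja3, Dnajb5, Hsf1, Hspb2 and Hspb6) and 1 lower (Hspa13). This was so for all genes, since the first 5 fits called 0 of the 25005 higher and at most 1 lower, and the last called 3468 and 2063. That last fit held exercise arrays from 1 strip of the slide and sedentary arrays from the other. Group and strip cannot be told apart in it. When 1 array was left out, the differences ranged from 0.70 to 0.93 for Hspb6, from 0.67 to 0.92 for Hspb2, from 0.67 to 0.84 for Dnajb5 and from -0.56 to -0.39 for Hspa13.

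**Figure D1:**
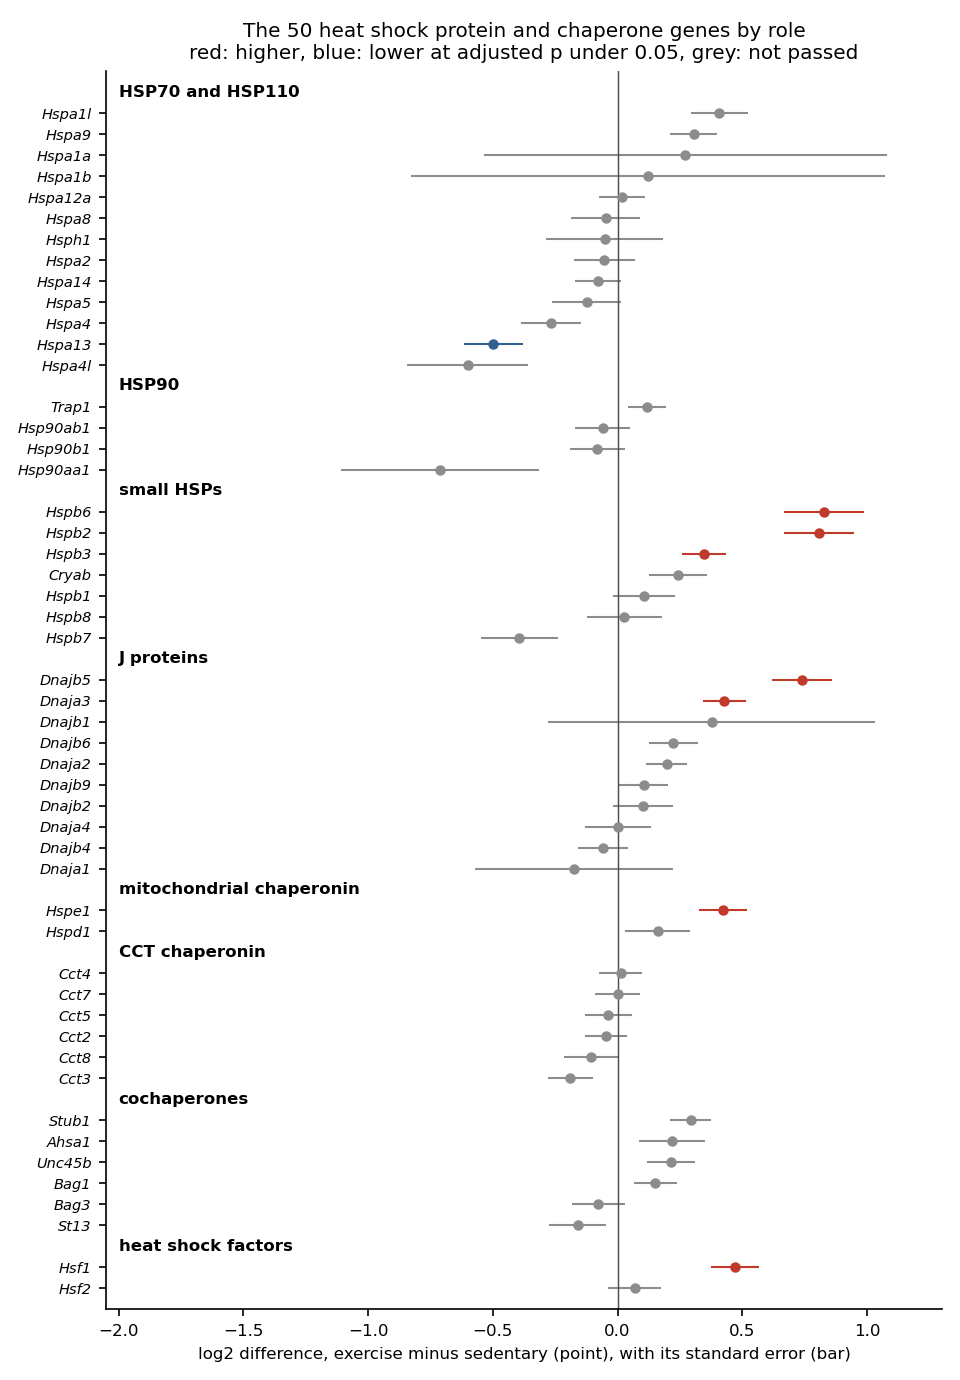
Log2 difference between the exercise and sedentary groups (x axis; point) with its standard error (bar) for all 50 members, grouped by role, with 3 arrays in each group. The points of the small heat shock proteins reach furthest to the right, the CCT subunits lie close to 0, and the bars of Hspa1a, Hspa1b and Dnajb1 are the longest.

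The small heat shock proteins held the 2 largest rises, and 3 of the 7 measured rose, beside 11.5% of everything tested. The group median was 0.24. After quantile normalization only Hspb2 of the family rose, and Hspb7 fell. Hspb6 (HSP20) is a muscle protein phosphorylated by cyclic nucleotide dependent kinases. Its scaled log2 signals were 7.27, 7.34 and 7.70 in exercise mice 1 to 3 and 6.82, 6.59 and 6.41 in sedentary mice 1 to 3. The groups did not overlap, and the difference was 0.83 ± 0.16 (± gives the SE throughout, n = 3 in each group), a 1.78-fold rise with a limma adjusted p of 0.027. A second probe of Hspb6 gave 0.86. Hspb2, which binds the myotonic dystrophy kinase, measured 5.78, 5.76 and 5.71 in the exercise group and 5.17, 4.995 and 4.67 in the sedentary group. The exercise mice differed by only 0.06 from lowest to highest while the sedentary mice differed by 0.50, and the rise was 0.81 ± 0.14 (adjusted p of 0.024 by limma). Hspb3, the partner with which Hspb2 assembles in muscle, measured 5.32, 5.18 and 5.12 against 4.89, 4.82 and 4.87. This was a smaller rise of 0.35 ± 0.09 (adjusted p of 0.045 by limma), again without overlap.

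The other small heat shock proteins did not pass. Cryab (alpha-B crystallin), the desmin chaperone of the Z-disc, gave 8.38, 8.15 and 8.51 in the exercise group and 8.02, 8.16 and 8.12 in the sedentary group, so that exercise mouse 2 lay within the sedentary range, and its difference was 0.24 ± 0.12. Hspb1 (HSP27), which protects actin filaments, measured 8.48, 8.48 and 8.80 against 8.35, 8.53 and 8.55, a difference of 0.11 ± 0.12. Hspb8, which works with Bag3 in chaperone-assisted autophagy, measured 5.57, 5.50 and 5.76 against 5.33, 5.60 and 5.83, a difference of 0.03 ± 0.15. In both genes the ranges of the groups overlapped. Hspb7 (cvHSP) was the single member of this group on the other side. It measured 7.25, 7.57 and 7.68 in the exercise group and 7.68, 7.95 and 8.04 in the sedentary group, where the highest exercise value was just below the lowest sedentary value. Its difference of -0.39 ± 0.15 had a limma adjusted p of 0.12, and its other probe gave -0.44. Within this family the differences therefore ran from -0.39 to 0.83. The family's median lay 0.22 above that of everything tested under each scaling by 1 factor per array, 0.08 above it with normexp background correction and 0.17 below it (-0.17) after quantile normalization.

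**Figure D2:**
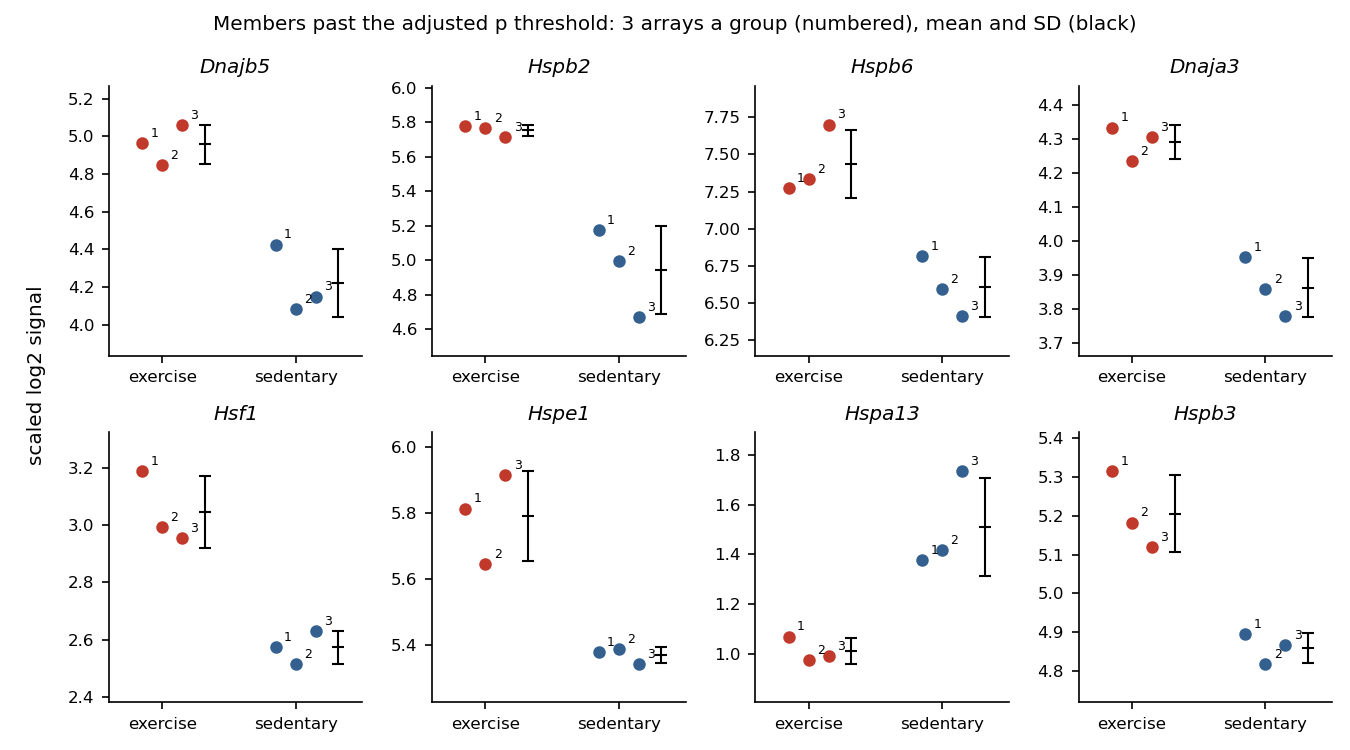
Scaled log2 signal (y axis) of the 8 members past the threshold on each exercise and sedentary array, numbered by mouse, with the group mean and SD in black. In all 8 panels the 3 exercise points and the 3 sedentary points occupy separate ranges, and only Hspa13 is lower in the exercise group. The 8 were picked on these same values, and the groups were apart for 43.2% of everything tested.

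Among the 13 HSP70 and HSP110 genes 1 fell and none rose, beside 6.15% and 11.5% of everything tested. Of the 13 differences 4 lay above the median of everything tested, under each scaling by 1 factor per array and with normexp. After quantile normalization 5 did. Hspa13 (STCH) is an HSP70 relative of microsomes that lacks the client-binding domain. Its scaled log2 signals were 1.07, 0.98 and 0.99 in the exercise group and 1.38, 1.42 and 1.73 in the sedentary group. The groups were apart, with a fall of 0.50 ± 0.12 and a limma adjusted p of 0.039. Hspa1l, an HSP70 gene best known from testis, gave 1.05, 1.11 and 1.35 against 0.67, 0.76 and 0.87. Its groups were also apart, but the difference of 0.41 ± 0.11 had an adjusted p of 0.057 by limma. Hspa9 (mortalin), the HSP70 of the mitochondrial matrix, measured 5.08, 4.94 and 5.13 against 4.83, 4.65 and 4.76. The groups were apart by 0.31 ± 0.10 (limma adjusted p of 0.073), and a second probe gave 0.19.

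The constitutive HSP70 genes moved little. Hspa8 (HSC70), the main cytosolic HSP70 of unstressed cells, measured 7.26, 6.81 and 7.20 in the exercise group and 7.09, 7.13 and 7.19 in the sedentary group. Exercise mouse 2 was the lowest of the 6 and the other two exercise mice were the highest, so the difference was -0.05 ± 0.14. The other 3 probes of Hspa8 gave -0.13, -0.18 and -0.14, with exercise mouse 2 lowest but a sedentary mouse highest. Hspa5 (BiP), the HSP70 of the endoplasmic reticulum, measured 5.19, 4.79 and 5.20 against 5.22, 5.09 and 5.25, again with exercise mouse 2 lowest. It differed by -0.12 ± 0.14, and Hspa2, Hspa12a and Hspa14 by between -0.08 and 0.02. The HSP110 genes act as nucleotide exchange factors of HSP70. Of these Hspa4 differed by -0.27 ± 0.12, Hspa4l by -0.60 ± 0.24 and Hsph1 by -0.05 ± 0.23, and none of the 3 passed. For Hspa4l all 3 of its probes gave between -0.71 and -0.60, and the lowest sedentary value, 1.78, lay below the highest exercise value, 1.80.

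Another 5 members had the widest ranges among the exercised mice, and are described together for that reason. Hspa1a and Hspa1b encode the inducible HSP70 and are neighbours with nearly the same sequence, and since the probe sequences were not used here, cross-hybridization between them could not be assessed. Hspa1a measured 3.19, 2.44 and 5.71 in exercise mice 1 to 3 and 3.18, 3.59 and 3.75 in sedentary mice 1 to 3. Exercise mouse 2 was the lowest of all 6 mice and exercise mouse 3 the highest, 9.62-fold apart, while the sedentary mice lay within 1.48-fold. Hspa1b showed the same arrangement, with 1.58, 0.58 and 4.47 against 1.74, 2.21 and 2.31, which is 14.8-fold within the exercise group and 1.49-fold within the sedentary group. Dnajb1 (HSP40), the inducible J protein partner of HSP70, measured 4.14, 3.08 and 5.82 against 3.86, 3.81 and 4.23. The lowest and the highest of the 6 were again exercise mice 2 and 3, here 6.68-fold apart.

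Dnaja1, a J protein of the cytosol, measured 5.17, 4.31 and 5.98 in the exercise group and 5.21, 5.30 and 5.47 in the sedentary group. Hsp90aa1, the inducible HSP90, measured 4.85, 3.93 and 5.33 against 4.996, 5.35 and 5.90. It was lowest in exercise mouse 2, as the others were, but highest in sedentary mouse 3. These 5 were the only members whose exercise mice ranged over more than 1 log2 unit, a limit set after their values were seen, and Hsph1 came next with 0.83. No member ranged over more than 1 among the sedentary mice, where Hsp90aa1 had the widest range, 0.90, but 1 did after quantile normalization (Hsp90aa1), 2 without scaling (Hsp90aa1 and Hspa4l) and 3 on the spike-in probes (these and Hspa1b). Of the 22285 genes and transcripts well above background on all arrays, 633 (2.84%) ranged over more than 1 among the exercise mice and 826 among the sedentary mice, and 163 of the 633 had exercise mouse 2 lowest and exercise mouse 3 highest in the exercise group, as all 5 members did. Among the exercise mice the same 5 members exceeded the limit under quantile normalization, array median scaling, no scaling, spike-in scaling, normexp background correction and in the deposited table of values. Second probes of Dnaja1 and Hsp90aa1 and all 3 probes of Hsph1 gave the same order of the exercise mice.

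**Figure D3:**
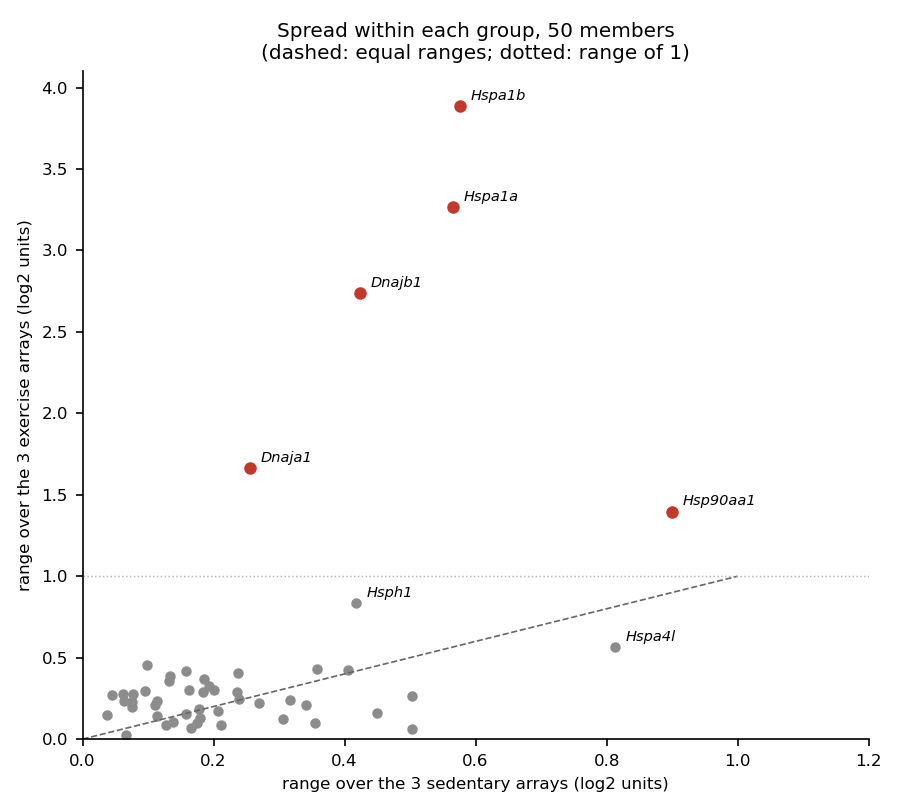
Range of the scaled log2 signal over the 3 sedentary arrays (x axis) and over the 3 exercise arrays (y axis) for each of the 50 members. Hspa1b, Hspa1a, Dnajb1, Dnaja1 and Hsp90aa1 (red) lie above the dotted line at 1, and the other members lie at 0.83 or lower.

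The group differences of Hspa1a, Hspa1b and Dnajb1 changed sign with the mice included. For Hspa1a the difference was 0.27 ± 0.81 over all mice, -0.69 without exercise mouse 3 and 0.94 without exercise mouse 2. For Hspa1b it was 0.12 ± 0.95, -1.01 without exercise mouse 3 and 0.94 without exercise mouse 2, and for Dnajb1 it was 0.38 ± 0.65, -0.36 and 1.01. The differences of Dnaja1 and Hsp90aa1 were -0.17 ± 0.40 and -0.71 ± 0.40, and none of the 5 passed in any of these fits. Hsp90aa1 kept its sign in all 21 alternative fits, some of which cannot turn it, from -1.27 to -0.29, and passed in 1 of them, the scaling on spike-in probes. Across all 50 members, exercise mouse 2 was the lowest of the 6 mice for 21 and exercise mouse 3 the highest for 23, against 18.0% and 16.3% of everything tested. These counts moved with the scaling, to 28 and 12 after quantile normalization (15.5% and 14.6% of everything tested), 10 and 21 with the array median (6.82% and 11.4%), 31 and 5 without scaling (27.4% and 4.1%), 23 and 4 on the spike-in probes (17.2% and 1.70%), 21 and 21 with normexp (12% and 21.2%) and 33 and 20 with the deposited values (29.4% and 16.2%). Adipocyte markers also differed among the exercise mice, with summed levels of 238, 328 and 625 in mice 1 to 3, and so did slow fibre markers, whose median over the list, relative to each gene's mean, was -0.84, -0.36 and 0.15. In both lists mouse 1 was lowest and mouse 3 highest of these 3 mice. For the 5 members mouse 2 was lowest and mouse 3 highest of the 3. The denervation markers had summed levels of 55.0, 59.7 and 59.3 in mice 1 to 3. The part of tissue composition in the spread was not tested.

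**Figure D4:**
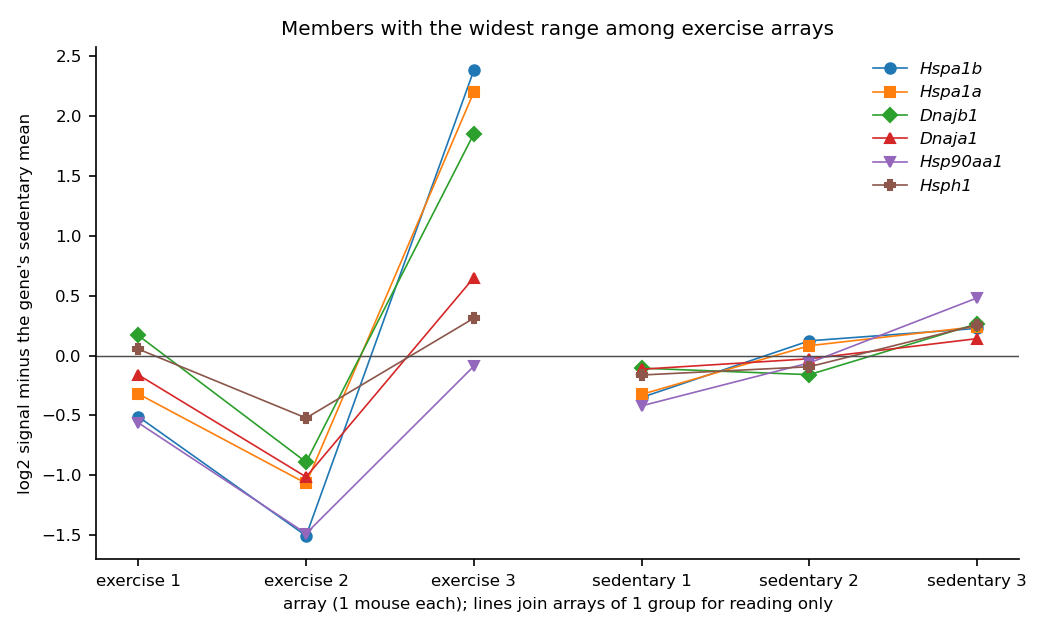
Scaled log2 signal minus the gene's mean over the sedentary group (y axis) for the 6 members with the widest range among the exercise mice, on each of the 6 arrays (x axis). Exercise mouse 2 lies at the bottom for all 6 genes, and exercise mouse 3 lies at the top within its group for all 6.

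The promoters of inducible members carry heat shock elements, inverted repeats of a short unit that HSF1 trimers bind. RefSeq promoter windows of 300 bases, 250 before the start and the rest after it (GRCm38.p6), were at hand for 40 of the 50 members. A pair of units head to head, GAANNTTC, which reads the same on both strands, was found in the windows of 15 of these 40, against 9.04% of the 27025 genes with a window. The 15 were Hspa1a, Hspa1b, Hsph1, Hspb1, Hspb3, Hspb6, Hspb8, Dnaja1, Dnaja4, Dnajb6, Hspd1, Hspe1, Cct2, Bag3 and Stub1. The tail-to-tail form TTCNNGAA, also its own reverse complement, was found for 6 of the 40 against 9.60% of all genes. An element of 3 alternating units, which contains both forms, was found for Dnajb6, Hspd1, Hspe1 and Hsph1, against 0.662% of all genes. Neither form was in the windows of Dnajb1. The ER stress element was found for Hspa5 and Hsp90b1, the BiP and GRP94 genes, against 0.137% of all genes. A match is a description of the letters in the window and not a binding site.

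For 5 members the windows are printed, up to the base before the start and in the direction of the gene, because Hspa1a, Hspa1b and Dnaja1 had a wide spread among the exercise mice, and Hspe1 and Hspb6 rose. Capitals mark the head-to-head element. The Hspa1a stretch is chr17:34972157-34972406 on the minus strand, the Hspa1b stretch chr17:34959239-34959488 on the minus strand, the Dnaja1 stretch chr4:40722218-40722467 on the plus strand, the Hspe1 stretch chr1:55087898-55088147 on the plus strand and the Hspb6 stretch chr7:30553051-30553300 on the plus strand. The stretches of Hspa1a and Hspa1b differed at 3 of 250 bases, and in both the element began 104 bases before the start. It began 124 bases before the start for Dnaja1, 84 for Hspe1 and 120 for Hspb6.
Hspa1a: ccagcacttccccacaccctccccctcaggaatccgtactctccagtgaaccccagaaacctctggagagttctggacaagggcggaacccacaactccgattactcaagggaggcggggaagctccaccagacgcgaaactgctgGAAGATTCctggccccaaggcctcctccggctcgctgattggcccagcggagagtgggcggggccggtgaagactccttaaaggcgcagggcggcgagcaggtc
Hspa1b: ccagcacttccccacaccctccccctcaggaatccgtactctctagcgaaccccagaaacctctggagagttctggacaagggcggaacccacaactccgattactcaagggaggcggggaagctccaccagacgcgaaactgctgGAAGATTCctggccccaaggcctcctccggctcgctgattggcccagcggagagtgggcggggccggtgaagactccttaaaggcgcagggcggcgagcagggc
Dnaja1: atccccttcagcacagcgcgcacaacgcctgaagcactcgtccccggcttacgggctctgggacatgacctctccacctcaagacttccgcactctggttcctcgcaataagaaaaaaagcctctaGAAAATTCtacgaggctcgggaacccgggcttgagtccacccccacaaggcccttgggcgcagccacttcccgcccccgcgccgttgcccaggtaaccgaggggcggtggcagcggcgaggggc
Hspe1: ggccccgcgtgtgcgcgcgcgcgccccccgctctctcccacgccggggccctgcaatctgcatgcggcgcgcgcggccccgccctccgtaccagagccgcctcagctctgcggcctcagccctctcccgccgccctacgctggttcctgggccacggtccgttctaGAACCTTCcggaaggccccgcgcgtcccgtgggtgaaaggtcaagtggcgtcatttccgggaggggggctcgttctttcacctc
Hspb6: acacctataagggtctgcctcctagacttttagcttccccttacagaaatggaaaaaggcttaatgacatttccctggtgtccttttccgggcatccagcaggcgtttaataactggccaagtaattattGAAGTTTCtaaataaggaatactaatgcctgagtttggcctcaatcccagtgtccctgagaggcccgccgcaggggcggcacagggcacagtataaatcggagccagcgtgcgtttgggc

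Of the 15 members with the head-to-head element, Hspb3, Hspb6 and Hspe1 rose and none fell, beside 11.5% and 6.15% of everything tested. The others did not pass, and their differences ranged from -0.17 for Dnaja1 to 0.29 for Stub1. Dnajb5 and Dnaja3 also rose, and their windows held neither the head-to-head nor the tail-to-tail form. No window was at hand for Hspb2, Hsf1 and Hspa13, which also passed the threshold. Of the 5 members with a range over 1 among the exercise mice, Hspa1a, Hspa1b and Dnaja1 held the element, Dnajb1 did not, and no window was at hand for Hsp90aa1.

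None of the 4 HSP90 genes passed the test. Their median lay at -0.096 from that of everything tested under each scaling by 1 factor per array. It lay at -0.38 after quantile normalization and at -0.27 with normexp. Hsp90ab1, the constitutive cytosolic HSP90 that holds steroid receptors ready for hormone, measured 8.24, 7.94 and 8.15 in the exercise group and 8.08, 8.24 and 8.20 in the sedentary group. The groups overlapped, and the difference was -0.06 ± 0.11. Hsp90b1 (GRP94), the HSP90 of the endoplasmic reticulum, differed by -0.08 ± 0.11. Trap1, the HSP90 of mitochondria, measured 3.16, 3.15 and 3.17 against 3.06, 3.00 and 3.07. Its groups were apart by a small margin, and the difference of 0.12 ± 0.08 did not pass.

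Of the 10 J proteins 2 rose and none fell, beside 11.5% and 6.15% of everything tested. Their group median was 0.15. The median lay 0.13 above that of everything tested under each scaling by 1 factor per array, 0.06 above it after quantile normalization and at -0.0074 from it with normexp. Dnajb5 (HSC40), a J protein of the Dnajb1 type that in heart muscle forms a redox-sensitive complex with HDAC4, measured 4.96, 4.85 and 5.06 in the exercise group and 4.42, 4.08 and 4.15 in the sedentary group. It had the smallest p of all 50 members, with a rise of 0.74 ± 0.12 (limma adjusted p of 0.024), and its other two probes gave 0.90 and 0.98. Dnaja3 (TID1), the J protein of mitochondrial HSP70, measured 4.33, 4.23 and 4.31 against 3.95, 3.86 and 3.78. Its rise was 0.43 ± 0.09 (limma adjusted p of 0.029) without overlap, and a second, dim probe gave 0.29.

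Dnaja2 and Dnajb6 had groups that were apart but did not pass, at 0.20 ± 0.08 and 0.22 ± 0.10. Dnajb6 suppresses the aggregation of polyglutamine proteins, and its 5 probes disagreed. The brightest gave 4.06, 3.91 and 4.19 in the exercise group and 3.85, 3.85 and 3.79 in the sedentary group, whereas the other 4 differed by -0.05, -0.27, -0.28 and -0.55. No direction can therefore be given for the gene as a whole. Dnajb2 (HSJ1), another J protein known to act on polyglutamine clients, differed by 0.10 ± 0.12. Dnaja4, Dnajb4 and Dnajb9 (ERdj4) differed by between -0.06 and 0.10, and the probes of Dnaja4 and of Dnajb4 differed in sign.

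The mitochondrial chaperonin consists of a barrel of HSP60 (Hspd1) and a lid of HSP10 (Hspe1). Hspe1 measured 5.81, 5.65 and 5.92 in the exercise group and 5.38, 5.39 and 5.34 in the sedentary group, a rise of 0.42 ± 0.10 without overlap (limma adjusted p of 0.036), and its other probes gave 0.49 and 0.52. Hspd1 measured 5.67, 5.33 and 5.69 against 5.34, 5.34 and 5.52, so that exercise mouse 2 was the lowest of the 6, and the difference was 0.16 ± 0.13. Both genes start from a shared promoter region in opposite directions, as Hspb2 and Cryab do at another locus. In each pair 1 gene passed and its neighbour did not, and the difference of change was computed within arrays, where a common scaling factor cancels. The log2 ratio of Hspe1 to Hspd1 was 0.26 higher in the exercise group than in the sedentary group, and that of Hspb2 to Cryab 0.56 higher. In both pairs each exercise array lay above every sedentary array, and the two-sided exact permutation p was 0.1, the smallest that 3 arrays against 3 allow. These pairs were chosen after their values were seen. Counted by compartment, also after the values were seen, the 5 mitochondrial members Hspa9, Trap1, Dnaja3, Hspd1 and Hspe1 differed by between 0.12 and 0.43. After quantile normalization Hspd1 came to -0.07 and Trap1 was also negative, as Trap1 was with the deposited values. All 5 were negative without scaling and on the spike-in probes.

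The CCT chaperonin folds actin and tubulin. None of its 6 measured subunits passed, and their differences ran from -0.19 for Cct3 to 0.01 for Cct4, with SEs from 0.08 to 0.11. Cct3 measured 3.30, 3.22 and 3.29 in the exercise group and 3.36, 3.44 and 3.57 in the sedentary group. It was the only subunit with groups apart, and its other probes gave -0.25 and -0.20. The other probes of Cct4 gave -0.11 and -0.16.

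None of the 6 cochaperones passed, with a median of 0.18. The median lay 0.16 above that of everything tested under each scaling by 1 factor per array, at -0.0025 from it with normexp and at -0.11 after quantile normalization. Stub1 (CHIP), the ubiquitin ligase that marks HSP70 and HSP90 clients, measured 4.31, 4.34 and 4.25 in the exercise group and 4.02, 4.06 and 3.94 in the sedentary group. The groups were apart, with a difference of 0.29 ± 0.08, and the limma adjusted p of 0.055 was just over the threshold. Unc45b, the myosin chaperone, differed by 0.21 ± 0.10 and Bag1, a nucleotide exchange factor of HSP70, by 0.15 ± 0.09, both with groups apart. Ahsa1, which stimulates the ATPase of HSP90, differed by 0.22 ± 0.13, and St13 (HIP), which stabilises HSP70 with ADP bound, by -0.16 ± 0.11. Bag3, the scaffold that joins HSP70 to Hspb8 at damaged filaments, measured 6.50, 6.56 and 6.79 against 6.75, 6.66 and 6.67. Exercise mouse 3 was the highest and the other two exercise mice the lowest, with a difference of -0.08 ± 0.11.

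Hsf1, the master regulator of the heat shock response, measured 3.19, 2.99 and 2.95 in the exercise group and 2.58, 2.52 and 2.63 in the sedentary group. Its mRNA rose by 0.47 ± 0.10 (1.39-fold, limma adjusted p of 0.030) with the groups apart. Exercise mouse 3 had the lowest Hsf1 level of the 3 exercise mice and the highest Hspa1a level. A relation between Hsf1 mRNA and Hspa1a was not tested. Hsf2, which binds the same element, differed by 0.07 ± 0.11.

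How far these values held depended on the scaling between arrays. Without any scaling the median of everything tested was -0.45 and on the 8 spike-in probes -0.53, against 0.03 in the values above and 0.11 with the array median, and changes are reported relative to the 75th percentile for that reason. Hspb2, Hspb6 and Dnajb5 were higher and Hspa13 was lower in the exercise group under all 21 alternatives tried, but they passed in 11, 10, 11 and 12 of these. Some alternatives, such as a block for the replicate number and a robust eBayes with a trend, leave the difference itself unchanged and cannot turn its sign. On the spike-in probes, where the shift of everything tested is included, Hspb2, Hspb6 and Dnajb5 came to 0.25, 0.27 and 0.18 and Hspa13 to -1.05, whereas Hsf1, Dnaja3, Hspe1 and Hspb3 came to between 0 and -0.21 there and without scaling. Within the strip of the slide that held both groups, where the comparison rests on sedentary mouse 1 alone, the differences were 0.62 for Hspb6, 0.58 for Hspb2, 0.53 for Dnajb5, 0.47 for Hsf1, 0.41 for Hspe1, 0.34 for Dnaja3, 0.31 for Hspb3 and -0.37 for Hspa13, with limma adjusted p between 0.245 and 0.364.

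**Figure D5:**
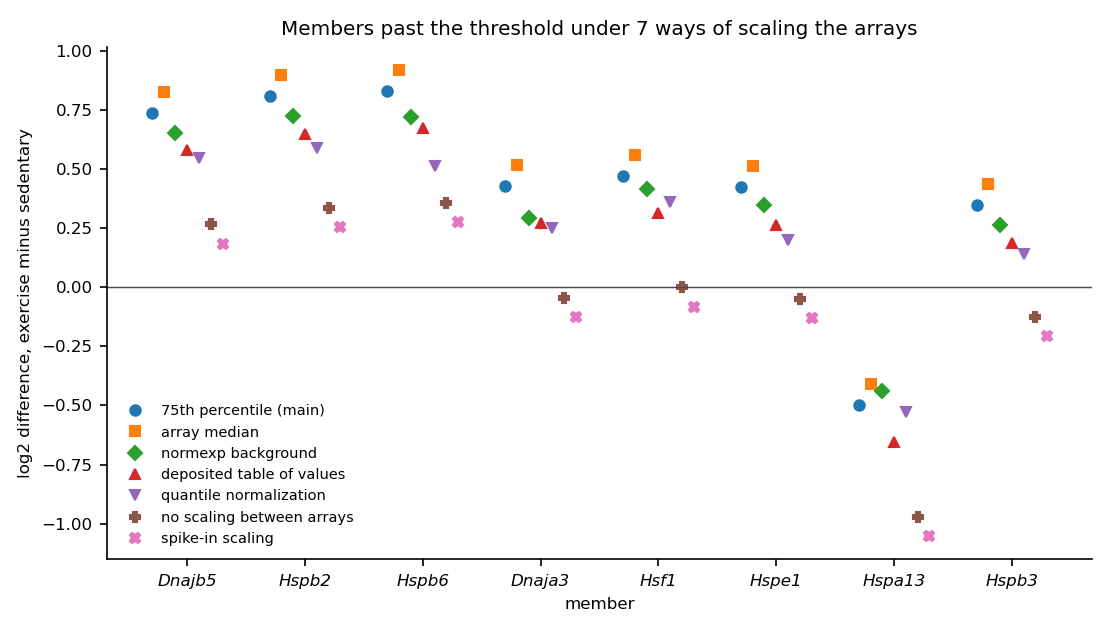
Log2 difference between the exercise and sedentary groups (y axis) of the 8 members past the threshold (x axis) under 7 ways of scaling the arrays. Hspb2, Hspb6 and Dnajb5 lie above 0 and Hspa13 below 0 throughout, and the other members reach 0 or below without scaling and on the spike-in probes.

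A wider list held other chaperones and their partners, 93 genes of which 91 were tested, since Dnajc22 and Cryaa had no matched probe that passed the filter. Of the 91, 17 rose and 4 fell, beside 11.5% and 6.15% of everything tested, and the median was 0.06. The 3 largest rises were those of Dnajc21, a J protein of ribosome assembly (0.78 ± 0.13, limma adjusted p of 0.024), Dnajc15, a J protein of the mitochondrial inner membrane (0.73 ± 0.11, adjusted p of 0.023), and Hikeshi, the carrier that brings HSP70 into the nucleus on heat stress (0.70 ± 0.10, adjusted p of 0.023). Among the falls were those of Cct6b (-0.59 ± 0.09, limma adjusted p of 0.024), a CCT subunit best known from testis, and Dnajc16 (-0.40 ± 0.09, adjusted p of 0.036).

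The sublists of the wider list were small, and their counts were not tested against each other. Of everything tested 11.5% rose and 6.15% fell. Prefoldin delivers actin and tubulin to CCT, and its subunits Pfdn1, Pfdn2, Pfdn4 and Pfdn6 rose by 0.37 to 0.59, while Vbp1 (0.29 ± 0.11, limma adjusted p of 0.12) and Pfdn5 (0.05 ± 0.11, 0.79) did not pass. Among the 12 partners of HSP70 3 rose, Hikeshi and the mitochondrial exchange factors Grpel1 (0.39 ± 0.08) and Grpel2 (0.35 ± 0.09). Among the 15 partners of HSP90 2 rose, one of them Smyd1, a muscle methyltransferase that works with Unc45b and HSP90 on myosin (0.56 ± 0.14). All 6 genes of a list of mitochondrial proteases, chaperones and cochaperones lay above the median of everything tested under each scaling by 1 factor per array. After quantile normalization 3 of them did, and 3 with normexp. Of the 6, 2 rose, the protease subunit Clpp (0.37 ± 0.08) and the cochaperone Hscb (0.52 ± 0.10). None of the 12 folding genes of the endoplasmic reticulum passed, and 2 of their differences lay above the median of everything tested under each of the 7 scalings. Of 29 other J proteins 5 rose and 3 fell, and of 8 disaggregation and ubiquilin genes Ubqln4 rose (0.54 ± 0.10). Under quantile normalization the wider list gave 8 rises and 5 falls, with the deposited values 6 and 11, and without scaling 0 and 46. Of everything tested these settings called 1865 and 1363, 1172 and 3201, and 617 and 11280.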

How the data were processed

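The authors labelled total RNA with Cy3, hybridized it to Agilent mouse arrays and read the images with Agilent Feature Extraction, according to the submitters' processing notes. The deposited processed signal is an intensity on a linear scale with background subtracted and spatial trends removed by the authors' software. A table of all arrays, deposited beside these, equals the processed signal multiplied by 1 factor per array (1.33 to 1.88) and was used as an alternative. Its making is not given in the sources used here.

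Of the 62976 spots, 3671 controls were left out, as were spots flagged as outliers. The log2 values of a probe's spots were averaged, and the 75th percentile of each array was taken off. Probes were named by transcript accession through a RefSeq table of GRCm38.p6, used for names, neighbours and promoter sequences. A probe had to be well above background on 3 or more of the 6 arrays, which left 32726 of 56605 probes, and the probe with the highest mean stood for a gene. Between 54.6 and 59.9% of probes were well above background on an array. The precision is limited by there being 3 arrays in each group.

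The comparison used the two-sided moderated test of limma 3.58.1 (R 4.3.3) with no covariate, and p-values were adjusted by Benjamini-Hochberg over the 25005 genes and transcripts. The threshold was an adjusted p of 0.05, with a log2 difference of 1 as a further limit. The code was tested on simulated data. The members, the wider list, the marker lists and the tests were chosen with earlier results of these data known. The genes named are the members that passed, 12 members fixed by name (Hspa1a, Hspa1b, Hspa8, Hsp90aa1, Hsp90ab1, Hspb1, Hspb8, Cryab, Dnajb1, Bag3, Stub1 and Hsf1) and the 3 largest rises and falls of the wider list, of which 1 fall is not reported here, and the other members were added by role after their values were seen. The macrophage, endothelial, fibroblast and red blood cell marker lists had no gene past the threshold, the smooth muscle list 1 rise and 2 falls, the adipocyte list 1 rise, the slow fibre list 1 rise and 2 falls, the Schwann and satellite cell lists 1 fall each, and the skeletal muscle list 5 rises. The adipocyte rise was that of Lep (0.35), while the other 6 genes of that list had negative differences and its median was -0.78.

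Alternatives were other scalings (quantile, array median, none, 8 spike-in probes), normexp background correction with an offset of 50, the deposited table, other filters and rules for a gene's probes, array weights, a robust eBayes with a trend, blocks for the replicate number or the strip of the slide, and each array left out. The range over 1, the within-array ratios of gene pairs and the medians of role groups under other scalings were added after seeing the data. Promoter windows were searched on both strands.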

Additional observations from a re-analysis of the deposited data

How the results depend on the processing

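Of the 7 rises and 1 fall among the members, quantile normalization gave 2 and 3 (Hsp90ab1, Hspa13 and Hspb7 falling), the deposited values 3 rises, the array median 0 falls, normexp 4 falls, and the probe with the largest SD and array weights 2 falls each. Without scaling there were 0 rises and 21 falls, 1 of them past the limit of 1, and on the spike-in probes 0 and 22, with 3 past that limit. Of everything tested, quantile normalization called 1865 higher and 1363 lower, the deposited values 1172 and 3201, the array median 2680 and 872, normexp 6224 and 2043, array weights 5117 and 3639, no scaling 617 and 11280 and spike-in scaling 352 and 11660. For the wider list (17 rises and 4 falls) quantile normalization gave 8 rises, the deposited values 6 and 11, the array median 1 fall, normexp and array weights 7 falls each, the probe with the largest SD 11 rises, no scaling 0 and 46, and spike-in scaling 0 and 42. The median of the members was -0.16 (quantile), -0.11 (deposited table), -0.42 (no scaling) and -0.51 (spike-in). Relative to the median of everything tested it was 0.02 in the report and under the last 3, which shift all genes alike. It was -0.14 after quantile normalization and -0.084 with normexp.

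With the strip as a block, and within the strip that held both groups, 0 members and 0 genes of the wider list were called in either direction, with 7 and 6 members at an unadjusted p under 0.05. These fits called 0 of everything tested higher and 3 and 0 lower, and the second holds 1 sedentary array, assumed to vary like the exercise arrays. With the replicate number as a block 0 members and 0 genes of the wider list were called, as were 0 of everything tested, and 13 members had an unadjusted p under 0.05. The replicate numbers did not pair the mice: deviations of mice sharing a number correlated at 0.02, 0.08 and 0.04. When 1 array was left out, rises among the members ranged from 0 to 5 and falls from 0 to 1, rises of the wider list from 0 to 19 and falls from 0 to 4, and the median of the members from -0.044 to 0.12. Only without sedentary mouse 1, where group and strip coincide, were any of these called, and the other 5 fits called at most 1 of everything tested. The cause was not tested.

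Single members changed sign as follows. Without scaling the differences were -0.0011 for Hsf1, -0.045 for Dnaja3, -0.051 for Hspe1, -0.13 for Hspb3, -0.20 for Hspa1a, -0.35 for Hspa1b, -0.37 for Hspb1, -0.45 for Hspb8, -0.23 for Cryab, -0.10 for Dnajb1 and -0.18 for Stub1. On the spike-in probes they were -0.082, -0.13, -0.13, -0.21, -0.28, -0.43, -0.45, -0.53, -0.31, -0.18 and -0.26 in the same order. Quantile normalization gave -0.38 for Hspb1, -0.21 for Hspb8 and -0.19 for Cryab. The deposited table gave -0.035 for Hspa1b, -0.0500 for Hspb1 and -0.13 for Hspb8, and normexp -0.057 for Hspb8. The array median gave 0.041 for Hspa8, 0.028 for Hsp90ab1 and 0.012 for Bag3, and the strip, as a block or alone, 0.032 for Hsp90ab1. With 1 array left out, Hspa1a ranged from -0.69 to 0.94, Hspa1b from -1.01 to 0.94, Dnajb1 from -0.36 to 1.01, Hspb1 from -0.0016 to 0.16, Hspb8 from -0.10 to 0.15, Hspa8 from -0.13 to 0.094 and Hsp90ab1 from -0.13 to 0.026. Leaving out exercise mouse 3 turned the signs of Hspa1a, Hspa1b, Dnajb1, Hspb1, Hspb8 (-0.048) and the median, leaving out exercise mouse 2 those of Hspa8 and Hsp90ab1, and leaving out sedentary mouse 1 those of Hspa1b (-0.053) and Hspb8 (-0.10). Hspb2, Hspb6, Dnajb5, Hspa13 and Hsp90aa1 kept their direction under all 21 alternatives, some of which cannot turn it.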
